A study of Homo sapiens with 8 samples.

Results

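UHRF1 depletion and the histone deacetylase (HDAC) inhibitor trichostatin A (TSA) were combined in DLD1, an established human colorectal adenocarcinoma cell line, and the effect of the combination was set against the sum of both single effects for every probe of 8 gene expression arrays. The 8 arrays are all the arrays of the series and form a 2 by 2 design of siRNA and agent, with 4 groups of 2 arrays. Cells received a control siRNA (siCONT) or an siRNA against UHRF1 for 48 h, and then either ethanol (mock) or 300 nM TSA for 24 h. The groups were siCONT mock, siUHRF1 mock, siCONT TSA and siUHRF1 TSA in unmodified DLD1 cells, and in each siUHRF1 group the arrays carried different siRNAs, siUHRF1-1 and siUHRF1-2. The depletion is a transient knockdown. Levels are processed intensities on the log2 scale, each array being set to 0 at its 75th percentile, and every difference below is a difference of such levels. The interaction is the effect of UHRF1 depletion under TSA minus its effect under mock, so that a positive value lies above the sum of both single effects and a negative value below it.

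UHRF1 recognises hemimethylated DNA behind the replication fork and guides DNMT1 there, so that methylation patterns are copied to the daughter strand. HDACs remove acetyl groups from histone tails, and their inhibition opens chromatin, halts the cell cycle and alters the transcription of many genes in either direction. In colorectal cancer cells with many methylated CpG islands, DNA methylation and deacetylated histones are both marks of silenced promoters, which is the reason for studying both agents together.

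Probes were tested where at least 1 group had both its arrays well above background, which held for 24580 probes (18443 genes), and 19900 of these reached that signal on all 8 arrays. The share of probes well above background ran from 43.3% to 48.0% over the arrays, all on 1 slide. Mock arrays lay in row 1 and TSA arrays in row 2 of it, so that row and agent cannot be told apart. Columns 1 and 2 held siCONT, column 3 siUHRF1-1 and column 4 siUHRF1-2, so that column and siRNA cannot be told apart either. All 15 markers of colon epithelium examined, such as EPCAM, KRT19 and CDX2, were well above background on all 8 arrays, whereas 3 of 7 leukocyte, 2 of 5 endothelial and 2 of 7 fibroblast markers could be tested. The arrays of a siCONT group differed by 1.16 times (mock) and 1.08 times (TSA) the noise between repeated spots of 1 array, against 12.5 and 10.3 times for the siUHRF1 arrays, and were therefore counted as 1 sample in every mean. UHRF1 itself stood at 1.99 in siCONT mock, at 0.34 and -0.02 with siUHRF1-1 and siUHRF1-2 under mock, at 1.03 in siCONT TSA, and at -1.55 and -2.14 in the combination arrays of siUHRF1-1 and siUHRF1-2. The depleted arrays were below the siCONT arrays of the same agent with both siRNAs, and the effect of the siRNAs was -1.83 under mock and -2.87 under TSA, with an interaction of -1.04 that did not pass (limma, adjusted p = 0.0989).

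An interaction was called at a Benjamini-Hochberg adjusted p under 0.05 from limma and a size of at least 1, that is 2-fold. Above the sum 695 probes (656 genes) were called, 2.83% of those tested, and below it 511 probes (478 genes), 2.08%. These p-values treat the siCONT arrays as 2 samples. With the siCONT arrays of an agent averaged to 1 sample, limma called 0 probes, the smallest adjusted p was 0.0742, and 2116 probes passed at an unadjusted p under 0.05 (1230 above and 886 below). Leaving out either array of siCONT mock left 136 or 167 calls and leaving out either array of siCONT TSA 198 or 189. In the siUHRF1 groups an array number stands for the siRNA, and this fit does not use that tie between mock and TSA. With a replicate block within each siRNA arm limma called 0 probes, with a smallest adjusted p of 0.0557 and 3218 probes at an unadjusted p under 0.05. Of the 99 called probes of the genes chosen for description, 13 kept their call whichever array was left out, those of ALPG, CCN1, DPYSL5, IGF2, KRT14, MAGEA11, MT1G, NUPR1, PHOSPHO1, PSCA, SPANXA1, TNFSF9 and UCHL1. Of these, DPYSL5, KRT14, MAGEA11, MT1G, SPANXA1 and UCHL1 entered the test only through the combination, where they are high, and so had to differ.

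Each siRNA has 1 array per agent, so its interaction is a size with no test. The interaction was at least 1 above the sum for 2971 probes with siUHRF1-1 and for 2064 with siUHRF1-2, and at least 1 below it for 2362 and 2028. Between the siCONT arrays, where no depletion differs, 562 probes passed the same size upward and 582 downward. Over probes well above background on all 8 arrays the counts were 1509 and 902 above the sum and 1602 and 1119 below it. Between the siCONT arrays they were 32 and 47. Since the siCONT arrays differ by little more than spot noise, their counts may hold technical spread only. They do not show how many probes would pass between separate cultures. Both siRNAs passed the size above the sum for 1340 probes (5.45%) and below it for 1015 probes (4.13%), and they passed it in opposite directions for 44 probes, 5 of them well above background on all 8 arrays. All 1206 called probes had the same sign with both siRNAs. The call sets the mean over the siRNAs against a spread that holds their difference. Probes with opposite signs could thus hardly be called, and this count is a description.

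**Figure D1:**
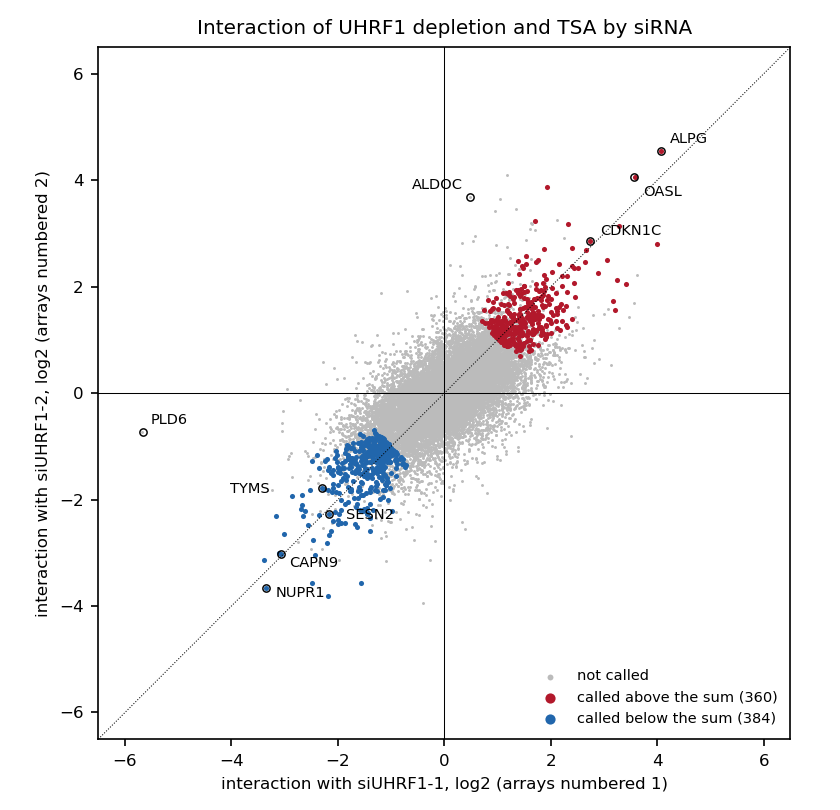
The interaction with siUHRF1-1 (x axis, log2) is plotted against that with siUHRF1-2 (y axis, log2), each computed with the siCONT arrays of the same number, for the 19900 probes well above background on all 8 arrays. The 360 probes called above the sum (red) lie upper right, the 384 called below it (blue) lower left, and PLD6 and ALDOC are examples of genes far from the dotted line of equal effects.

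The called probes were placed by the size of both single effects, with 1 as the limit. Above the sum, 374 of 695 probes (53.8%) passed the limit with neither agent alone, and 233 of these were at least 1 higher in the combination than in siCONT mock. In 112 further probes TSA alone was lower by at least 1 and depletion passed in neither direction, in 87 TSA alone was higher, and in 48 both single effects were lower by at least 1 while the combination had a median of -1.16. Below the sum, neither single effect passed for 236 of 511 probes (46.2%), 87 of them at least 1 lower in the combination. Both single effects were higher by at least 1 for 114 probes (22.3%), whose median in the combination was 1.66, and for 86 probes only TSA was higher. Above the sum 320 called probes, and below it 106, had a group in which no array was well above background, and for these the size of the fitted interaction is no bound.

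Genes were grouped into lists by function, 1 probe a gene. The median interaction over all 18443 genes was 0.07, with 0.12 for siUHRF1-1 and 0.04 for siUHRF1-2, and 557 of them were called above the sum and 375 below it. Among lists with at least 10 genes on all 8 arrays, and over these genes, the medians farthest below were those of G2/M (-0.98), mucin and goblet (-0.76), S-phase (-0.75), absorptive colonocyte (-0.66), integrated stress response (-0.64) and E2F and G1/S genes (-0.55). Neuronal genes (0.99), histones (0.66) and glycolysis and hypoxia genes (0.59) lay farthest above.

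**Figure D2:**
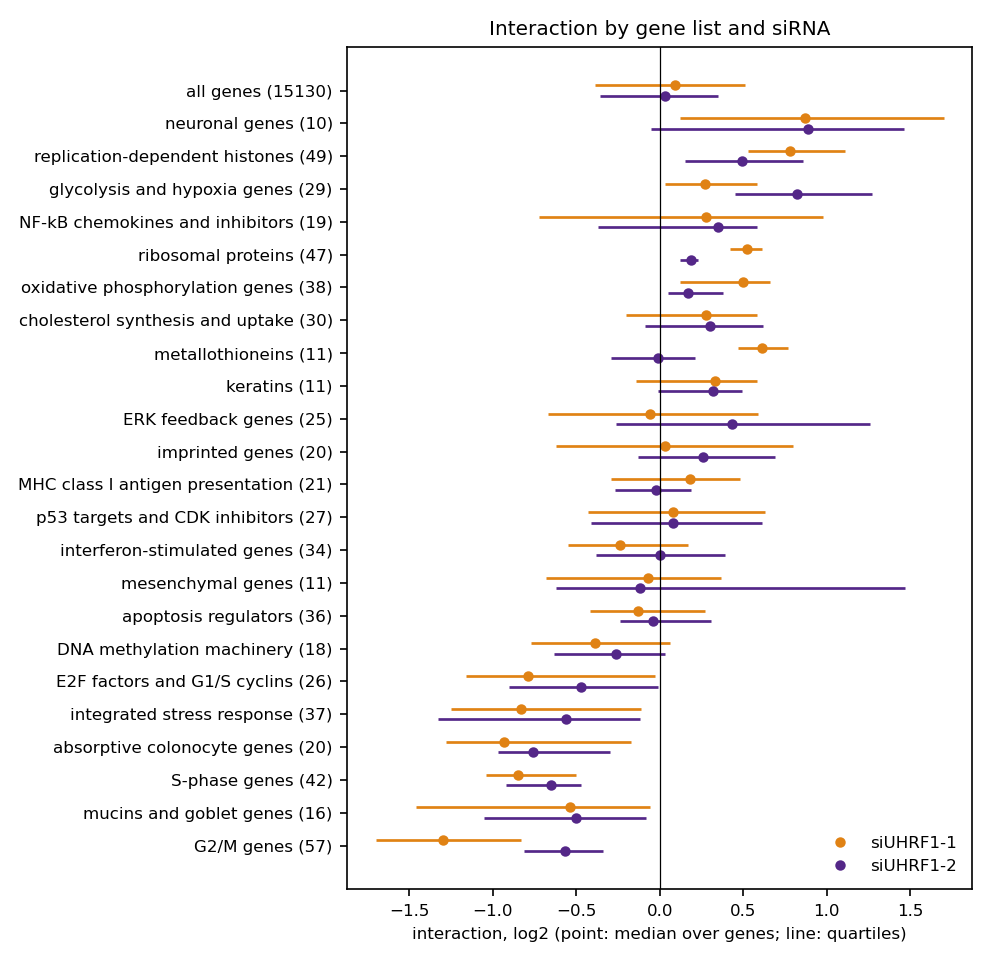
Points give the median interaction (x axis, log2) over the genes of each list that were well above background on all 8 arrays, with their number in brackets, and lines the quartiles, for siUHRF1-1 (orange) and siUHRF1-2 (purple). G2/M genes have medians of -1.30 and -0.57, replication-dependent histones 0.78 and 0.49, and all 15130 genes 0.09 and 0.03.

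The G2/M genes, which build the spindle, condense chromosomes and drive entry into mitosis, were lower in the combination than the sum of both effects. All 57 genes of the list were well above background on all 8 arrays, 55 had a negative interaction, and the median was -0.98 (-1.30 with siUHRF1-1, -0.57 with siUHRF1-2), against 0.07 over all genes. Depletion alone had a median effect of -0.48 and TSA alone by -0.84, whereas the combination stood at -2.19, with 54 of 57 genes at least 1 lower than in siCONT mock and 55 lower than with either agent alone. 6 of the 57 genes were called below the sum and 0 above it, against 375 and 557 of all 18443 genes. In a culture, fewer cycling cells and less of these RNAs per cell cannot be told apart. On the linear intensity scale, where the sum adds intensities, the median departure was -0.22.

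CENPE, the kinesin that links kinetochores to spindle microtubules, had a level of 1.63 in siCONT mock, 1.86 and 1.26 with siUHRF1-1 and siUHRF1-2 under mock, 1.00 in siCONT TSA, and -0.96 and -0.62 in the combination. Both combination arrays were lower than every other array. For CENPE limma gave an interaction of -1.72 (SE 0.31, adjusted p = 0.0374), with -2.19 for siUHRF1-1 and -1.25 for siUHRF1-2. BIRC5, which encodes survivin of the chromosomal passenger complex, went from 5.75 in siCONT mock and 5.94 and 5.76 in the depleted mock cells to 4.56 under TSA and 3.49 and 3.43 under both. Depletion alone left BIRC5 within 0.2 of siCONT, and its interaction was -1.20 (SE 0.17, adjusted p = 0.024). CDCA8, which encodes borealin of the same complex, stood at 4.80, then 4.68 and 4.25, then 3.79, then 2.27 and 2.25 in the same order of groups. Its interaction was -1.20 (SE 0.23, adjusted p = 0.0417), and the combination arrays again lay below all others. KIF23, a kinesin of the central spindle, and CKAP2, a microtubule-associated protein, were called with interactions of -1.17 and -1.12. A second probe of CKAP2 had -0.22 and did not pass, with -0.65 and 0.20 by siRNA. CCNB1, the cyclin of mitotic entry, stood at 5.08 in siCONT mock, 4.89 and 4.43 after depletion, 3.53 under TSA, and 1.53 and 1.88 under both. The interaction of its probe was -1.40 (adjusted p = 0.0439), and -1.61 at a second probe, although on the linear scale it lay 0.13 above the sum. The largest interactions of the list that did not pass were those of ANLN (-2.10, adjusted p = 0.145) and TOP2A (-1.85, adjusted p = 0.139), where siUHRF1-1 and siUHRF1-2 differed under mock, TOP2A standing at 3.51 and 1.90 against 2.64 in siCONT.

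The promoters of KIF23 and CDCA8, both called, are shown because they hold the cell cycle homology region (CHR, searched as TTTGAA and TTCGAA) together with CCAAT boxes, the arrangement known from late cell cycle genes. The 250 bases before the transcription start are from RefSeq (GRCh38.p14), chr15:69414099-69414348 on the plus strand for KIF23 and chr1:37692266-37692515 on the plus strand for CDCA8, and capitals mark CHR and CCAAT matches on either strand.
KIF23: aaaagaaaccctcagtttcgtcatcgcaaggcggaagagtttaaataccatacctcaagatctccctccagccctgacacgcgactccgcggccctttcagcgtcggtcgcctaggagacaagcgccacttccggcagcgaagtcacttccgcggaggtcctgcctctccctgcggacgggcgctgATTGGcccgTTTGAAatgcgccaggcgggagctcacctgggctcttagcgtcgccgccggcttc
CDCA8: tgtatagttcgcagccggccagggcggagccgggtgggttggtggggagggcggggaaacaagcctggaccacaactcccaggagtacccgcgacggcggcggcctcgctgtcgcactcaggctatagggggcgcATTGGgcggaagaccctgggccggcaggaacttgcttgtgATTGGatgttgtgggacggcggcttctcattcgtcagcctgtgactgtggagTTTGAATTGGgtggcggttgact
The CHR match of KIF23 begins 55 bases before the start and that of CDCA8 23 bases before it, where it shares a base with a CCAAT match. Of the 48 G2/M genes with a promoter in the table, 34 (70.8%) held a CHR and 34 (70.8%) a CCAAT box within the window from 250 bases before to 50 after the start, against 16.6% and 35.7% of all 27305 promoters of the same length. CENPE and CKAP2, which were called as well, held neither, so not every called gene carries these letters here.

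The S-phase genes and the E2F family, which license origins, supply nucleotides and set the G1/S transition, also lay below the sum. All 42 S-phase genes well above background on all 8 arrays had a negative interaction, the median over the 43 tested was -0.77 (-0.84 with siUHRF1-1, -0.66 with siUHRF1-2), and 6 were called below the sum, 0 above, against 375 and 557 of all 18443 genes. The median after depletion alone was 0.00, under TSA alone -0.51, and in the combination -1.28. Of 27 E2F factors and G1/S cyclins 6 were called below the sum, against the same 375 of 18443, with a median interaction of -0.54 (-0.78 and -0.45 by siRNA), which was -0.28 without the siUHRF1-1 mock array. Lists share CCNE2 and E2F8, which are counted in both.

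TYMS, the enzyme that makes dTMP, stood at 5.79 in siCONT mock, at 5.93 and 5.80 with siUHRF1-1 and siUHRF1-2 under mock, at 4.42 in siCONT TSA, and at 2.25 and 2.64 in the combination. Under mock the depleted arrays were within 0.2 of siCONT, whereas under TSA the effect of depletion was -1.97, and the interaction was -2.04 (SE 0.22, adjusted p = 0.0155). RRM2, the small subunit of ribonucleotide reductase, was between 1.43 and 1.89 in all groups but the combination, where it stood at -0.31 and 0.33. Its interaction of -1.64 (SE 0.31, adjusted p = 0.0413) thus rested on lower levels in the combination, with both siRNAs. MCM2 of the replicative helicase and DSCC1 of the clamp loader used in sister chromatid cohesion were called with -1.28 and -1.15. FOXM1, the factor that switches on mitotic genes, stood at 3.31, then 3.35 and 2.85, then 2.49, then 0.68 and 0.90 in the order used above, with an interaction of -1.49 (SE 0.27, adjusted p = 0.0372). TFDP1, the dimer partner of E2F proteins, was higher after depletion alone (4.05 and 3.91 against 3.45) and lower in the combination (2.54 and 2.50), with an interaction of -1.21 (SE 0.16, adjusted p = 0.0217). E2F1 showed the same turn, from 0.78 to 1.12 and 1.40 after depletion, 1.03 under TSA and 0.41 and 0.52 under both, with an interaction of -1.04 (SE 0.19, adjusted p = 0.0379). LIN9 of the MuvB complex, which binds CHR elements, was called with -1.11. CCNE2, cyclin E2, was called by 1 probe (-1.93, adjusted p = 0.0302) and not by its other probe (0.03).

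The promoter of E2F1 (RefSeq, GRCh38.p14, chr20:33686386-33686635, minus strand) is shown because it carries an E2F site (searched as TTTGGCGC and TTTCCCGC) beside CCAAT boxes, all in capitals.
E2F1: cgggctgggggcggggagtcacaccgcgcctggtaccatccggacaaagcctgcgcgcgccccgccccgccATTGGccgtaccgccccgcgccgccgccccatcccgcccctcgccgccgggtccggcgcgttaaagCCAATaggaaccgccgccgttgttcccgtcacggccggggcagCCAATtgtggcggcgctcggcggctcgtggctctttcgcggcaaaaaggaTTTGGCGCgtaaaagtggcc
The E2F match begins 20 bases before the start. Such a match was present in 13 of 32 S-phase promoters (40.6%) and in 5 of 19 of the E2F list (26.3%), against 2.31% of all promoters.

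**Figure D3:**
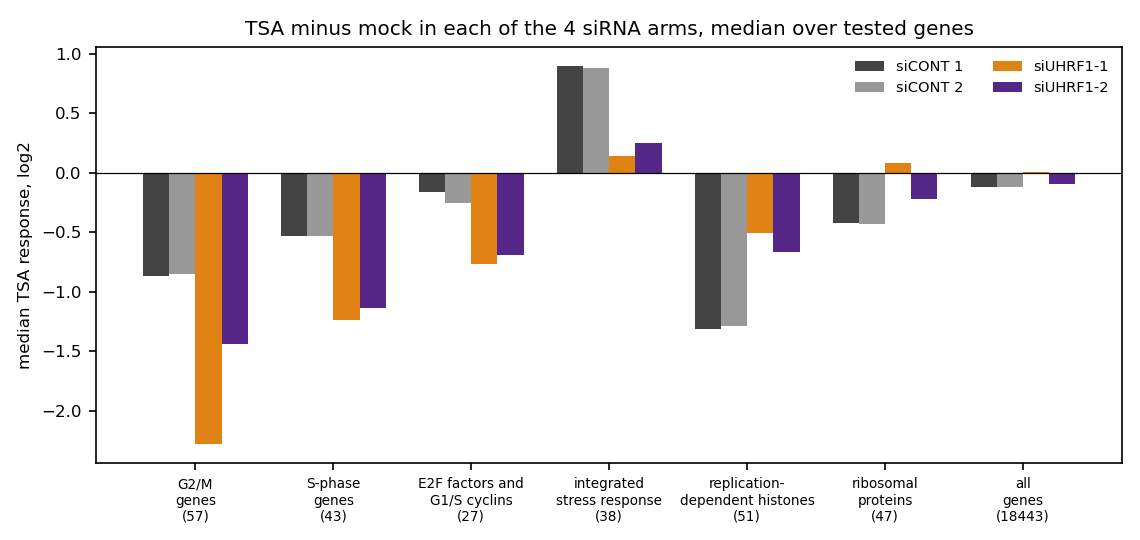
Bars show the median response to TSA (TSA minus mock, log2, y axis) over the tested genes of each list, with their number in brackets, in each of the 4 siRNA arms (siCONT arrays 1 and 2, siUHRF1-1, siUHRF1-2). For G2/M genes the medians are -0.87 and -0.85 in the siCONT arms and -2.28 and -1.44 in the depleted arms, and for the integrated stress response 0.90 and 0.88 against 0.14 and 0.25.

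Genes of the integrated stress response, the ATF4-driven programme that answers amino acid shortage and unfolded proteins, lay below the sum. The median response of the 38 tested genes to TSA alone was 0.87, with 17 genes at least 1 higher, whereas in depleted cells the median TSA response was 0.15 and 5 of these 17 genes were still at least 1 higher, as were 1493 of the 2240 genes that TSA alone put at least 1 higher in the whole set. The median interaction was -0.64 (-0.75 with siUHRF1-1, -0.51 with siUHRF1-2), 29 of 38 genes were negative, and 5 were called below the sum, 0 above, against 375 and 557 of all 18443 genes. Without the siUHRF1-1 mock array the median was -0.25, and without the siUHRF1-2 mock array -0.97. The TSA response was smaller with both siRNAs than in siCONT in 14 of the 17 genes and in 1077 of the 2240, and since a high TSA response in siCONT enters the interaction with a minus sign, these counts are a description.

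SLC6A9, the glycine transporter GLYT1, stood at 1.25 in siCONT mock, 1.52 and 1.63 with siUHRF1-1 and siUHRF1-2 under mock, 3.79 in siCONT TSA, and 1.40 and 2.02 in the combination. The combination arrays thus stayed near the mock levels, with an interaction of -2.40 (SE 0.29, adjusted p = 0.0195). A second probe was not well above background on all 8 arrays. SESN2, a leucine-sensing inhibitor of mTORC1, went from -0.55 to 1.53 with TSA in siCONT cells, and was between -0.32 and -0.78 on all 4 depleted arrays. Its interaction was -2.22 (SE 0.23, adjusted p = 0.0144), with -2.18 and -2.27 for siUHRF1-1 and siUHRF1-2. SLC3A2, the heavy chain of several amino acid transporters, went from 2.79 to 4.52 with TSA in siCONT and reached 3.5 and 3.14 in the combination, an interaction of -1.35 (SE 0.28, adjusted p = 0.0473). JDP2, a repressor of the AP-1 family, was called with -1.48 (SE 0.26, adjusted p = 0.0343). CHAC1, which degrades glutathione, showed a large TSA effect (2.17 to 5.19 in siCONT, 3.59 and 2.66 in the combination), but its interaction of -1.78 did not pass (adjusted p = 0.11).

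The called gene farthest below the sum among probes well above background on all 8 arrays was NUPR1, a small chromatin-bound stress protein of the same list (probe at chr16:28548821-28548880, hg19). Its level was 2.15 in siCONT mock, 3.85 and 3.58 with siUHRF1-1 and siUHRF1-2 under mock, 1.92 in siCONT TSA, and 0.28 and -0.36 in the combination. The depleted arrays were thus above siCONT under mock and below it under TSA, with an interaction of -3.51 (SE 0.32, adjusted p = 0.0099), or -3.33 and -3.70 by siRNA. Among members that did not pass, ATF3, an early stress factor, had an interaction of 1.35 (adjusted p = 0.273), CTH, which makes cysteine, of 0.84 (adjusted p = 0.231), and ASNS, the asparagine synthetase, of -0.15 (adjusted p = 0.91) at 6.39 in siCONT mock and 8.65 in siCONT TSA.

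The promoters of CHAC1 (chr15:40953221-40953470, plus strand) and AARS1 (chr16:70289507-70289756, minus strand) from RefSeq (GRCh38.p14) are shown for their C/EBP-ATF response element (CARE, searched as TGATGNAA on both strands), which is in capitals.
CHAC1: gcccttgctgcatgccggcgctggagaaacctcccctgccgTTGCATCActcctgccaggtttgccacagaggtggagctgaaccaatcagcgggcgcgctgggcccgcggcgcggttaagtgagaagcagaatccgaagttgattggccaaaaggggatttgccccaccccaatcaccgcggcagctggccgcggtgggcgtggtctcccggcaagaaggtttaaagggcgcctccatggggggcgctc
AARS1: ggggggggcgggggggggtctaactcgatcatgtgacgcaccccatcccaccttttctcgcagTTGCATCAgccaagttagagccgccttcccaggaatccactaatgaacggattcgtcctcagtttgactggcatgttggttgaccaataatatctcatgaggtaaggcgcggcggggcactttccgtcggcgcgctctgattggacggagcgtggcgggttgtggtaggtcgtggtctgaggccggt
AARS1, the alanyl-tRNA synthetase, had an interaction of -1.02 that did not pass (adjusted p = 0.181). The element was found in 8 of 33 promoters of the list (24.2%), that of ASNS among them, against 3.67% of all promoters, and in none of SESN2, SLC6A9 and JDP2.

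**Figure D4:**
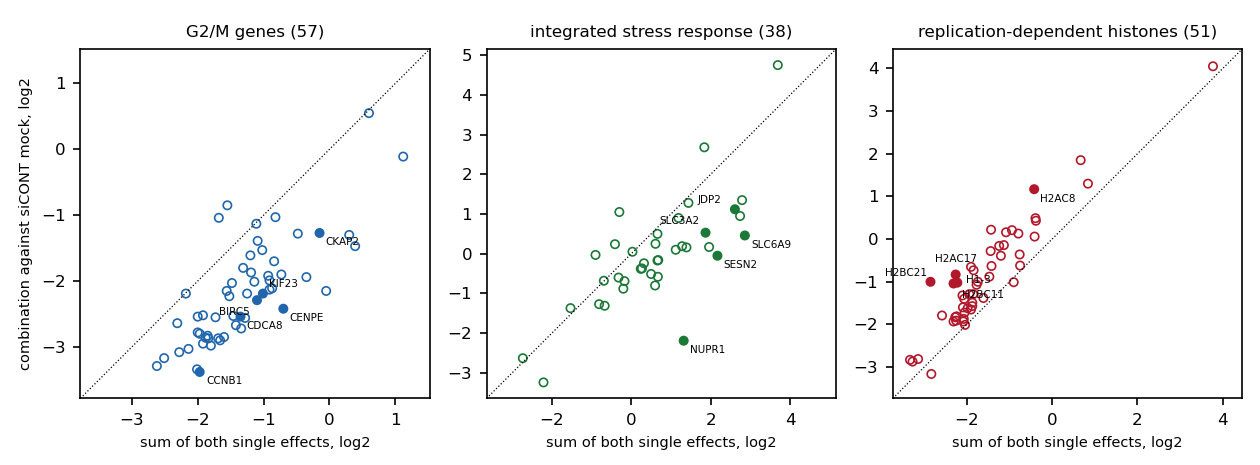
For each gene of 3 lists, the combination against siCONT mock (y axis, log2) is plotted against the sum of both single effects (x axis, log2), with the dotted line where they are equal and filled points for called genes. Of the 57 G2/M genes 55 lie below the line, of 38 stress response genes 29, and of 51 histones 49 lie above it.

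Replication-dependent histones, whose RNAs lack a poly(A) tail and are made in S phase, lay above the sum, opposite to the S-phase genes. Of 51 tested genes 5 were called above the sum and 0 below, against 557 and 375 of all 18443 genes, 48 of the 49 on all 8 arrays were positive, and the median was 0.58 (0.76 with siUHRF1-1, 0.49 with siUHRF1-2), or 0.38 without the siUHRF1-1 mock array. Their median TSA response was -1.31 and -1.29 in the siCONT arms and -0.51 and -0.67 with siUHRF1-1 and siUHRF1-2. The combination stood at a median of -1.02 against a sum of -1.87. The arrays were labelled from total RNA with a kit that, as background, usually primes at poly(A) tails, and whether the values reflect polyadenylated histone RNA was not tested. H2AC17 stood at 5.69 in siCONT mock, 4.85 and 5.19 with siUHRF1-1 and siUHRF1-2, 4.10 in siCONT TSA, and 4.67 and 5.06 in the combination, an interaction of 1.43 (SE 0.26, adjusted p = 0.0359). At this probe the combination arrays were thus close to depletion alone and above TSA alone. A second H2AC17 probe had effects of -0.69 with depletion, -2.07 with TSA and -2.19 with both. Its interaction of 0.56 did not pass (limma, adjusted p = 0.157). H2AC8 was higher in the combination (1.76 and 2.01) than in siCONT mock (0.72) and under TSA alone (0.03), with an interaction of 1.58 (SE 0.21, adjusted p = 0.0231). H2BC21 was called with 1.85, H2BC11 with 1.27 and the linker histone H1-3 with 1.20. Histone genes are near-identical copies of each other, and how far a probe also binds their paralogs was not tested.

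The promoter of H2BC11 (RefSeq, GRCh38.p14, chr6:27132796-27133045, minus strand) is shown as the histone example, with its CCAAT boxes in capitals.
H2BC11: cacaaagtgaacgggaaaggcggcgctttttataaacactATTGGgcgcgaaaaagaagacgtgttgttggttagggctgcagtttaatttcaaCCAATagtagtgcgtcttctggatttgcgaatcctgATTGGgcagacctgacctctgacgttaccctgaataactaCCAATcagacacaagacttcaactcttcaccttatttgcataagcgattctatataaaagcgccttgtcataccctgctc
It holds 4 CCAAT boxes, which 40 of 46 histone promoters (87%) and 22 of 32 S-phase promoters (68.8%) carry, lists that lie on opposite sides of the sum.

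Above the sum and well above background on all 8 arrays, the largest interaction was that of ALPG, the germ-cell alkaline phosphatase (probe at chr2:233275347-233275406, hg19). Its level was 0.68 in siCONT mock, 0.86 and 0.41 with siUHRF1-1 and siUHRF1-2 under mock, 2.71 in siCONT TSA, and 6.84 and 7.11 in the combination. The combination arrays were above all others, an interaction of 4.31 (SE 0.27, adjusted p = 0.00462), or 3.95 and 4.67 by siRNA. The placental ALPP, a close paralog, reached 3.88 with TSA alone and 4.39 and 5.18 in the combination, with an interaction of 0.65 that did not pass (adjusted p = 0.274). How far the probes of ALPG and ALPP tell these paralogs apart was not tested. TNFSF9, the ligand of the T cell costimulator 4-1BB, stood at 1.14, then 0.16 and -0.01 after depletion, then 0.82 under TSA, then 2.47 and 2.39 under both. It was lower than siCONT after depletion under mock and higher under TSA, with an interaction of 2.68 (SE 0.17, adjusted p = 0.00462). PHOSPHO1, a phosphatase of bone mineralisation, was between 0.73 and 1.43 in the other groups and at 3.81 and 3.83 in the combination (interaction 2.55, SE 0.16, adjusted p = 0.00462). ABCB6, a mitochondrial porphyrin transporter, was lower with TSA alone (-0.46 against 0.85) and higher with both agents (2.21 and 2.66), an interaction of 2.55 (SE 0.24, adjusted p = 0.0103).

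CDKN1C, the imprinted CDK inhibitor p57, was lower with each agent alone and not with both. It stood at 4.71 in siCONT mock, 3.80 and 3.35 with siUHRF1-1 and siUHRF1-2 under mock, 3.26 in siCONT TSA, and 5.08 and 4.78 in the combination, an interaction of 2.80 (SE 0.26, adjusted p = 0.0108). The imprinted growth factor IGF2, which also serves as a marker of the CpG island methylator phenotype, went from 0.36 to 0.89 and 1.03 after depletion, 2.47 under TSA and 5.24 and 5.13 under both, an interaction of 2.11 (SE 0.16, adjusted p = 0.00706). Of 25 imprinted genes tested these were the only ones called, and the list's median was 0.12. Of all 18443 genes 557 were called above the sum and 375 below it. OASL, an interferon-induced antiviral protein, stood at 0.69, then 0.15 and -1.24, then -0.98, then 1.93 and 1.27, with an interaction of 3.82 (SE 0.65, adjusted p = 0.0332), and IRF7, the interferon regulatory factor, was called with 1.69 (SE 0.19, adjusted p = 0.0174). Of the other interferon-stimulated genes, PARP9 and IFIT5 were called below the sum (-1.56 and -1.0), and the median over 40 tested genes was -0.11 (-0.24 and -0.04 by siRNA). In these 40 genes 2 were thus called on each side. MT3 and MT1F, metal-binding proteins of the metallothionein family, were called with 2.09 and 1.21, whereas MT2A and MT1E of the family had interactions of -0.06 and 0.15. Whether metallothionein probes tell the members of the family apart was not tested. CCN1, a matrix protein of the YAP programme, was lower after depletion alone (1.26 and 1.48 against 2.82), higher under TSA (4.62) and higher still with both (5.48 and 5.35), an interaction of 2.25 (SE 0.18, adjusted p = 0.00757). RNA5-8SN5, a ribosomal RNA gene, had effects of -2.35 with depletion, -2.52 with TSA and -2.19 with both.

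**Figure D5:**
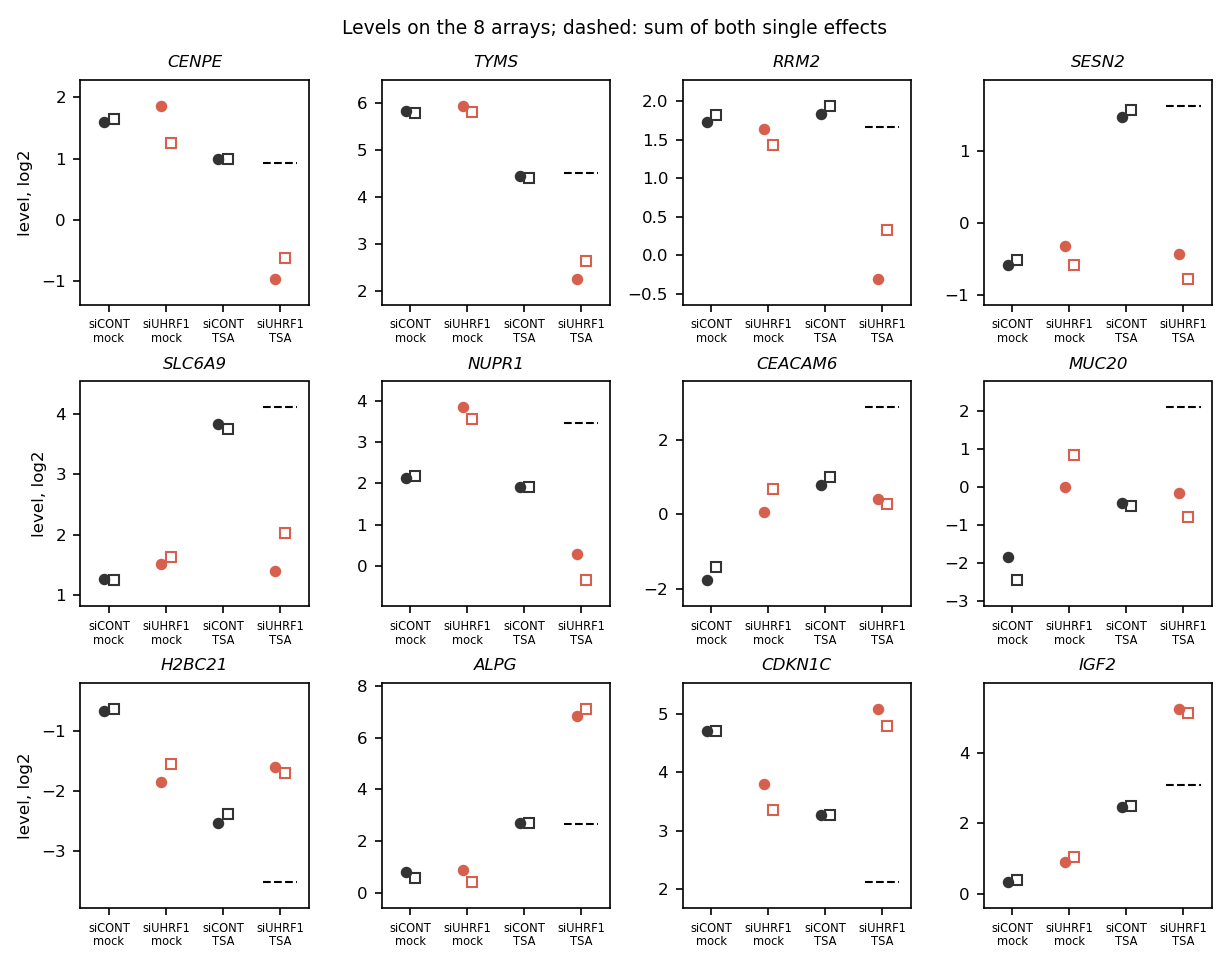
Levels (y axis, log2, own scale in each panel) of 12 genes on the 8 arrays by group, with circles for siCONT array 1 and siUHRF1-1, squares for siCONT array 2 and siUHRF1-2, and a dashed line where the sum of both single effects would place the combination. In CENPE, TYMS, RRM2, SESN2, SLC6A9, NUPR1, CEACAM6 and MUC20 both combination arrays lie below the line, and in H2BC21, ALPG, CDKN1C and IGF2 above it.

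Absorptive colonocyte genes and mucin and goblet genes, which cells switch on as they leave the crypt, lay below the sum as lists. The 15 markers of colon epithelium, KRT20 and LGALS4 among them, did not, with a median interaction of -0.05. Of these markers 7 were positive and 8 negative, with 1 called below the sum and 0 above. Of 29 tested absorptive colonocyte genes 11 were at least 1 higher after depletion alone, 10 of them by less under TSA, as were 969 of the 1218 genes that depletion put at least 1 higher in the whole set. This count follows from choosing genes by their effect under mock and is a description. Of the 20 absorptive colonocyte genes well above background on all 8 arrays 18 had a negative interaction, with a median of -0.66 (-0.93 with siUHRF1-1, -0.76 with siUHRF1-2). In these 20 genes 3 were called below the sum and 0 above it. Of all 15130 genes on all 8 arrays 7041 were negative, 286 called below and 294 above. Over the 29 tested genes, 6 of them with a group at background, 5 were called below and 1 above, against 375 and 557 of all 18443. CEACAM6, a surface adhesion protein, stood at -1.60 in siCONT mock, 0.06 and 0.69 with siUHRF1-1 and siUHRF1-2 under mock, 0.89 in siCONT TSA, and 0.42 and 0.28 in the combination. It was higher with either agent, and both combination arrays lay within the range of the single agents, an interaction of -2.51 (SE 0.34, adjusted p = 0.0231). LGALS4, a galectin of the brush border, went from 1.96 to 5.04 and 5.09 after depletion, to -1.61 under TSA, and to 0.08 and -0.07 under both (interaction -1.50, SE 0.18, adjusted p = 0.0192). CDH17, an intestinal cadherin, was called with -1.35 (SE 0.22, adjusted p = 0.0306). KRT20 had -1.65 and did not pass (adjusted p = 0.11). FABP1, the fatty acid carrier of enterocytes, was well above background only after depletion under mock, at 0.13 and 2.04 with siUHRF1-1 and siUHRF1-2, at least 22.3-fold over siCONT mock and at least 24.7-fold over the combination. It entered the test only through that group. Of the mucin and goblet cell list, MUC20 was called (-2.56, SE 0.51, adjusted p = 0.0454), and 12 of 16 genes on all 8 arrays were negative. The median over the 22 tested genes of that list was -0.61, and -0.21 without the siUHRF1-2 mock array or -0.24 without the siUHRF1-1 array under TSA. Other genes higher after depletion alone included PSCA, a surface antigen, at 1.06 in siCONT mock, 5.32 and 4.96 after depletion, -0.30 under TSA, and 0.92 and 1.18 under both (interaction -2.73, SE 0.24, adjusted p = 0.0099). CAPN9, a digestive-tract calpain, had -3.05 (SE 0.58, adjusted p = 0.0407), and S100A4, a calcium-binding protein, -2.40 (SE 0.31, adjusted p = 0.0218). SOCS2, an inhibitor of cytokine signalling, was higher with each agent alone (1.03 and 1.69 after depletion, 1.12 under TSA, against 0.09) and at -0.40 and -0.07 with both, an interaction of -2.62 (SE 0.33, adjusted p = 0.0206).

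Some genes at background elsewhere came above background in the combination alone, as did 345 of the 18443 genes tested. Since these entered the test only through the group where they are high, their levels are given as a description with no test. UCHL1, a neuronal ubiquitin hydrolase, stayed at background in the other 3 groups and stood at 0.70 and 0.51 in the combination arrays of siUHRF1-1 and siUHRF1-2. That is at least 16-fold over siCONT mock, at least 18.6-fold over depletion alone and at least 20.3-fold over TSA alone. DKK1, a secreted Wnt inhibitor, stood at 1.21 and -0.84 in the combination, at least 12-fold, 13.9-fold and 15.2-fold over the same groups. MT1G, another metallothionein, reached 0.62 and 0.75, at least 16.9-fold, 19.6-fold and 21.4-fold, and the neuroendocrine granule protein CHGA -0.07 and -1.01, at least 7.25-fold, 8.42-fold and 9.19-fold. The gut hormone gene CCK reached 3.38 and 0.68, at least 43.0-fold, 49.9-fold and 54.5-fold. Both combination arrays were well above background in each of these genes, which the filter required, so it is no separate sign of agreement between the siRNAs. TIMP3, a metalloproteinase inhibitor examined with UCHL1 and DKK1 for its methylated promoter, was at 0.49 with siUHRF1-1 and -3.46 with siUHRF1-2 in the combination and at -2.79 and -2.78 in siCONT TSA, so the siRNAs differed and the interaction did not pass (adjusted p = 0.705). NEURL1 of the same set was well above background in all groups, with an interaction of 0.90 (adjusted p = 0.111). Of the 9 genes of this set on the array only these 4 could be tested. The others were not well above background on both arrays of any group, the combination included.

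The promoter of UCHL1 (RefSeq, GRCh38.p14, chr4:41256678-41256927, plus strand) is shown with its CG dinucleotides, the targets of DNA methylation, in capitals.
UCHL1: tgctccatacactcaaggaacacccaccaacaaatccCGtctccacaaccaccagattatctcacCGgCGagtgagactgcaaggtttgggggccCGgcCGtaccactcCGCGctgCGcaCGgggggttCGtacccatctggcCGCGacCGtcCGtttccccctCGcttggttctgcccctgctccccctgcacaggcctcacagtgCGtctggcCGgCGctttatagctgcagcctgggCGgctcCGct
These 250 bases hold 20 CG dinucleotides. In the longer window to 50 bases after the start, the median number was 21 for genes called above the sum, 28 for genes called below it and 25 for all tested genes with a promoter. No methylation was measured on these arrays.

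Cancer-testis antigens, germ-line genes of which many are held silent by DNA methylation, were dim. Of 56 genes 22 could be tested, 7 of them well above background in the combination group alone, so that their counts and medians say nothing about the list. SPANXA1 was at 3.28 and 1.90 in the combination and at background on the other arrays, at least 63.3-fold over siCONT mock, at least 73.4-fold over depletion alone and at least 80.2-fold over TSA alone. The SPANX genes are near-identical copies, and how far their probes tell them apart was not tested. MAGEA11 and MAGEC1 also came above background in the combination only, with smaller bounds (at least 1.45-fold and 1.84-fold over siCONT mock). Among the 6 genes of the list that were well above background on all 8 arrays, PRAME stood at -2.52 in siCONT mock, -2.39 and -2.12 after depletion, -2.94 under TSA and -1.04 and -1.17 under both, an interaction of 1.57 (SE 0.25, adjusted p = 0.0298), and CT45A1 was called with 1.75 (SE 0.23, adjusted p = 0.0223). Of the 10 neuronal genes on all 8 arrays 8 were positive, and STX1A of the synaptic fusion machinery (1.54), the tau gene MAPT (1.49) and the vesicle GTPase RAB3A (1.60) were called. Of all 15130 genes on all 8 arrays, 8089 were positive, 294 were called above the sum and 286 below it. RAB3A was lower with TSA in all arms, by less in depleted cells (0.61 in siCONT mock, -2.10 in siCONT TSA, -0.77 and -0.81 in the combination), whereas STX1A and MAPT were higher in the combination than in any other group. The endothelial marker VWF was called below the sum, from levels below background in siCONT mock, so that the size of its interaction is no bound.

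Housekeeping programmes lay close to the sum. Ribosomal protein genes had a median of 0.35 (0.52 and 0.19 by siRNA), positive for all 47 at 1 probe a gene. But the median was -0.02 after quantile normalization and 0.00 with arrays scaled to their median, so its direction depends on the scaling. A probe of RPL27A outside this count was called below the sum (-2.74, limma, adjusted p = 0.0483), with -2.22 and -3.27 by siRNA. Oxidative phosphorylation genes (0.33) and genes of cholesterol synthesis and uptake (0.32) stood at -0.01 and -0.03 with median scaling, which moves the median of all genes from 0.07 to -0.27. Relative to the median of all probes, they ran from 0.13 to 0.27 and from 0.11 to 0.34 over the scalings. In the cholesterol list, 24 of 31 genes were at least 1 lower with TSA alone and 26 in the combination, and STARD4, a sterol carrier, was called above the sum (1.66, SE 0.25, adjusted p = 0.0264). Of 38 apoptosis regulators, 22 MHC class I genes and 20 genes of the DNA methylation machinery none was called, with medians of -0.11, 0.08 and -0.35. Of all 18443 genes 557 were called above the sum and 375 below it. DNMT1, UHRF1's partner, had an interaction of -0.48 (adjusted p = 0.13).

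The siRNAs differed in size for some programmes and genes. The G2/M median was more negative with siUHRF1-1 (-1.30) than with siUHRF1-2 (-0.57). Among probes on all 8 arrays the gene with the largest gap was PLD6, a mitochondrial protein of the piRNA pathway, at 5.38 with siUHRF1-1 and 1.59 with siUHRF1-2 under mock against 0.91 in siCONT, which gave interactions of -5.69 and -0.72. ALDOC, a glycolytic aldolase, had 0.58 with siUHRF1-1 and 3.57 with siUHRF1-2, and the imprinted RNA H19 -2.90 and 0.01. SPINK1, a trypsin inhibitor, had -0.23 and -4.12. Each siRNA stands for a single array per agent, so these gaps between siRNAs have no test.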

How the data were processed

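Total RNA was labelled with Cy3 and hybridised to Agilent SurePrint G3 Human GE v2 arrays. The deposited files hold a processed intensity per spot, made with Agilent Feature Extraction 10.7.3.1 (probe positions on hg19), which the authors' extraction corrected for background but did not scale between arrays. The series matrix holds the same intensity, which was used as an alternative. Control spots and outlier spots were left out, spots of a probe were averaged, and log2 of the intensity minus the 75th percentile of each array was fitted by group (4 means, lmFit and eBayes, two-sided) using limma 3.58.1 under R 4.3.3. The labels give the groups and do not say whether the arrays of a siCONT group come from separate cultures. The p-values rest on the spread between arrays of a group, pooled over the 4 groups. In the siCONT groups this spread may be technical, and in the siUHRF1 groups it holds the difference between siUHRF1-1 and siUHRF1-2. The number of arrays limits the precision. There were 4 residual degrees of freedom besides a prior of 2.17. Tested on simulated data, the script gave called effects the right sign and mean estimates near the sizes put in. The simulated arrays were independent and had the same spread in every group. They thus do not copy the unequal spread of the siCONT and siUHRF1 arrays. The members, gene lists and rules for named genes were chosen with earlier results of these data known. Named genes were chosen from the 12 largest interactions each way on all 8 arrays that both siRNAs shared at a size of 1. Further ones were the called and the next 4 genes of each list and 6 dim genes each way. The 4 with the largest gap between siRNAs each way were added. Not all of these are described in the text. LINC00173, CFAP96, HES7 and PCDH7 above the sum and DIDO1, C1orf81 and TAS1R3 below it are among those left out. The probe of the highest mean level stood for a gene. Symbols came from the files, updated for 28160 probes (55.7%) through RefSeq accessions. Bounds ("at least N-fold") set the bright group against the lowest signal well above background on each array, or the probe's own where higher. Where a gene had further probes, they can disagree: 201 of 253 further probes of genes called above the sum and 187 of 243 below it had the same sign. Alternatives were other background corrections, scalings, filters, blocks and leaving out each array. Setting groups at background to the lowest signal well above it was an alternative chosen after seeing the data. 1 result is not reported here.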

Additional observations from a re-analysis of the deposited data

Results flagged for a closer look

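In 28 of the 695 probes called above the sum, the level after UHRF1 depletion was at least 1 lower than siCONT under mock and at least 1 higher under TSA, and in 20 of the 511 called below it it was at least 1 higher under mock and at least 1 lower under TSA. They are singled out because the effect of depletion had opposite directions under the agents, and the difference itself passed the interaction test of limma in each. Of the former 7 and of the latter 10 were well above background on all 8 arrays. TNFSF9 (-1.07 under mock, 1.61 under TSA), CDKN1C (-1.13 and 1.67) and OASL (-1.24 and 2.58) are among the former, NUPR1 (1.56 and -1.96), SOCS2 (1.27 and -1.35) and the long non-coding RNA LINC01133 (1.55 and -1.72), the last with 3 probes, among the latter. Averaging the siCONT arrays of each agent left 0 of these calls in limma.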

How the results depend on the processing

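All 1206 called interactions kept their sign in every other fit that tested them, except under normexp, where 1195 did. The filters, the blocks, the ordinary linear model and the averaging of the siCONT arrays leave a probe's estimate unchanged. Its sign could not turn in those fits. Counts of calls moved more. Against 1206 (695 above, 511 below), normexp background correction gave 774 (414 above), no filter on dim probes 213 (177 and 36), the ordinary linear model 433 after Benjamini-Hochberg (255 and 178) and 2337 at unadjusted p (1272 and 1065), and median scaling 1575 with 381 above and 1194 below. That scaling moves the median of all probes by -0.34 and the share above the sum from 57.6% to 24.2%. The share was 48.0% with quantile normalization (546 above, 592 below), 46.8% over probes on all 8 arrays (490 and 556) and 83.1% without filter. With the siCONT arrays as 1 sample 0 were called, 0 above and 0 below. Over the other settings the smallest adjusted p ran from 5.7e-05 to 0.0557. Leaving out 1 array gave 136 to 2893 calls, 109 to 1512 above and 18 to 1381 below. Without siUHRF1-1 or siUHRF1-2 under mock it was 2008 or 2893, and under TSA 1057 or 1745.

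Deviations from the group means correlated between same-numbered arrays at r = 0.337 for siUHRF1, where the number is the siRNA, at 0.0743 for siCONT and at -0.0563 to 0.0351 elsewhere. An additive replicate block gave 678 calls (408 above, 270 below). A replicate block within each siRNA arm gave 0 (0 above, 0 below), with 3218 at unadjusted p under 0.05 in limma and a smallest adjusted p of 0.0557. Of the 99 called named probes 62 kept their call with the additive replicate block.

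Among named genes, normexp turned the sign of AFAP1L2 (0.01), BTBD16 (0.16), CDHR5 (0.01) and MEI1 (0.80), and the linear sum that of AFAP1L2 (0.46), BTBD16 (0.76), CCNB1 (0.13) and SLC4A8 (0.22). Uncalled genes near 0 turned with quantile normalization (MT1B -0.03, PYCR3 -0.07) or median scaling (MT1B -0.12, MT1X -0.02, PYCR3 -0.29). Without 1 array the interaction ran from -0.55 to 1.23 for BHLHE40, -0.28 to 1.84 for C17orf67, -0.33 to 2.62 for INSIG1, -1.20 to 1.31 for PYCR3 and -0.95 to 3.0 for TIMP3. The cause was not tested. List medians for G2/M (-1.32 to -0.85), S-phase (-1.11 to -0.69), stress response (-0.98 to -0.60) and histones (0.24 to 0.61) kept their sign under all scalings. Without 1 array they ran from -1.26 to -0.68, -0.93 to -0.63, -0.97 to -0.25 and 0.38 to 0.75, and the E2F list from -0.70 to -0.28, the mucin list from -0.80 to -0.21.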

Other observations

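Glycolysis and hypoxia genes, which HIF-1 controls, had median effects of -0.99 with TSA alone, -0.57 with depletion alone and -1.13 with both, against a sum of -1.52. Of 30 tested genes 27 had a positive interaction and 0 were called, and the median was 0.61, with 0.27 for siUHRF1-1 and 0.88 for siUHRF1-2. Of all 18443 genes 10046 had a positive interaction, 557 were called above the sum and 375 below it. ANKRD37 stood at 4.71 in siCONT mock, 3.68 and 1.94 with siUHRF1-1 and siUHRF1-2 under mock, 1.98 in siCONT TSA, and 2.22 and 3.20 in the combination, an interaction of 2.63 (adjusted p = 0.105) that was 1.28 with siUHRF1-1 and 3.99 with siUHRF1-2. PFKFB4, a regulator of glycolytic flux, had 1.59 (adjusted p = 0.0792) and the glucose transporter SLC2A1 1.18 (adjusted p = 0.228). The median kept its sign under all scalings (0.27 to 0.65) and was 0.28 without the siUHRF1-2 mock array.

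Of 28 tested genes of ERK feedback 17 had a positive and 11 a negative interaction. EGR1, an immediate-early factor, had effects of -2.23 with depletion, -2.93 with TSA and -3.09 with both, an interaction of 2.07 (adjusted p = 0.163), and FOS had 2.34 (adjusted p = 0.233). EGR2, at background after depletion alone and under TSA alone, was at least 3.16-fold higher in the combination than with TSA alone. SPRY1, a feedback inhibitor, was called with 1.63 (adjusted p = 0.0471), whereas SPRY4 had -1.91 (adjusted p = 0.093), and the median over 28 genes was 0.34 (0.12 and 0.47 by siRNA, -0.01 with median scaling, and 0.02 to 0.81 without 1 array).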
